A study of Homo sapiens with 6 samples.

Results

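The genes described here are 57 genes whose products copy the genome or supply the nucleotides for it. They were picked by symbol from the 20297 genes of the expression table: origin recognition and licensing factors, MCM helicase proteins, GINS and CDC45, primase and DNA polymerases, the sliding clamp and its loaders, single-strand binding proteins, Okazaki fragment enzymes, fork protection factors, chromatin factors at the fork, and enzymes of deoxynucleotide supply. All 57 were in the table, and all 57 passed the filter on low values, with at least 1 TPM (transcripts per 1000000) in at least 2 of the 6 libraries. Polyadenylated RNA was sequenced from 22Rv1, a cultured line of human prostate cancer. The 3 groups were cells given vehicle, cells given Drug_0120 (0120-0018 in the treatment protocol) and cells given Drug_CN27, with 2 libraries each. The labels present both compounds as inhibitors of H1-10, a linker histone variant, and each was used at its own IC50, the concentration that gives 50% of the maximal inhibition. Neither the concentrations nor the treatment times were given in the sources used here, so it is not known whether doses and times match between the compounds.

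Before S phase, the origin recognition complex with CDC6 and CDT1 loads the MCM2 to MCM7 helicase onto DNA, and geminin (GMNN) blocks CDT1 so that no origin is loaded again. CDC45 and GINS then complete the helicase, polymerase alpha-primase starts each strand, polymerases delta and epsilon extend it on the PCNA clamp, and FEN1 and LIG1 join the Okazaki fragments. Transcripts of many of these genes rise in proliferating cells as they pass from G1 into S phase, largely through E2F transcription factors. In bulk RNA, fewer cells in S phase and less RNA of these genes per cell cannot be told apart.

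Over the 13606 tested genes the 2 libraries of a group correlated at r = 0.996 (vehicle), 0.996 (Drug_0120) and 0.994 (Drug_CN27). Sequencing depth cannot be read from TPM, so that behind each value is unknown. The labels do not say whether the 2 libraries of a group are separate cultures, and p-values therefore measure the spread between these libraries alone, which may be technical. TPM outside the table made up 18.7% ± 0.829 of the total in vehicle, 28.4% ± 0.604 with Drug_0120 and 19.0% ± 0.857 with Drug_CN27 (SD, n = 2). The part of that difference in the results was not tested beyond rescaling each library. All 9 luminal prostate markers were measured, and their summed level was 2352 to 2377 TPM with vehicle, 1409 to 1414 TPM with Drug_0120 and 2627 to 2634 TPM with Drug_CN27. The markers did not move together. With Drug_CN27 their log2 changes ran from -1.12 (KLK3) to 1.46 (FOLH1), with a median of -0.10. With Drug_0120 they ran from -2.35 (KLK3) to 0.19 (FOLH1), with a median of -0.74. The part of these differences in the results was not tested. The basal list (KRT5, KRT14 and TP63) summed to at most 0.183 TPM, with both keratins at 0 in all 6 libraries. The endothelial list (CDH5, VWF and KDR) summed to at most 0.0163 TPM, with CDH5 at 0 in all 6. The endothelial marker PECAM1 was not in the expression table. The leukocyte list summed to at most 2.96 TPM, with CD3E at 0 in all 6 libraries and CD14 the only member that passed the filter. The fibroblast list summed to 25.3 to 33.4 TPM, and 4 of its 6 genes passed the filter, among them COL1A1, LUM and DCN.

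With Drug_0120 the transcripts of DNA replication were far below vehicle. Summed over the 57 genes, the level was 5254 and 5339 TPM in the vehicle libraries and 1730 and 1762 TPM in the Drug_0120 libraries, which is 32.7% and 33.3% of the vehicle mean. Of the 57 genes, 54 fell, 1 rose (ORC4) and 2 did not pass the test (ORC3 and POLE3), by limma at an adjusted p under 0.05. Among all tested genes 81.5% were called in this comparison, with 45.5% lower and 36.0% higher. Higher calls were 44.2% of all calls, a share that was 49.8% to 52.6% under the other scalings named in the next paragraph. A fall of at least 2-fold was called for 42 of the 57, against 20.2% of all tested genes, and a rise of at least 2-fold for 0 of the 57, against 11.5%. The median log2 change of the 57 was -1.66, beside -0.10 over all tested genes, and every log2 change here is on the log2(TPM + 1) scale, which makes changes at low TPM look smaller than they are. The libraries of both groups did not overlap for any of the 57, as for 90.8% of all tested genes.

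With Drug_CN27 the same family stood between the other groups in its sum. The 2 libraries summed to 3245 and 3278 TPM, 61.3% and 61.9% of the vehicle mean. Here 48 of the 57 genes fell, 1 rose (ORC4) and 8 did not pass limma's test. Among all tested genes 70.4% were called, with 26.6% lower and 43.7% higher, so that higher calls were 62.1% of all calls, a share that was 48.2% to 62.3% under other scalings (median-of-ratios, each table rescaled to 1000000, quantile normalization and a correction for GC content). A fall of at least 2-fold was called for 13 of the 57, against 4.82% of all tested genes. Under median-of-ratios scaling it was called for 20 of the 57, but the all-gene share of 2-fold falls was not counted there. Lower calls of any size were 35.4% of all tested genes under that scaling. No rise of at least 2-fold was called among the 57, against 7.33% of all tested genes. The median log2 change was -0.70, beside 0.15 over all tested genes. Libraries did not overlap with vehicle for 54 of the 57 genes, as for 84.6% of all tested genes.

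Since both compounds were set against the same vehicle libraries, the difference between them was also tested directly. With Drug_CN27 as against Drug_0120, 49 of the 57 genes were higher, 3 were lower (ORC5, POLE3 and RFC3) and 5 did not pass limma's test (ORC3, ORC4, MCM8, DSCC1 and RPA1). Of all tested genes 75.2% were called, 51.7% higher and 23.5% lower, so that higher calls were 68.7% of all calls, or 48.8% to 57.7% under those other scalings. A level at least 2-fold higher with Drug_CN27 was called for 23 of the 57, against 17.7% of all tested genes. Under median-of-ratios scaling it was called for 16 of the 57, but the all-gene share at 2-fold was not counted there. Higher calls of any size were 37.3% of all tested genes under that scaling. None of the 57 was called at least 2-fold lower, against 3.97% of all tested genes, and the compounds' libraries did not overlap for 53 of the 57, as for 87.0% of all tested genes. The median difference was 0.79, beside 0.26 over all tested genes. Relative to the all-gene medians, the medians of the 57 were -1.56 for Drug_0120, -0.85 for Drug_CN27 and 0.53 between the compounds.

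**Figure D1:**
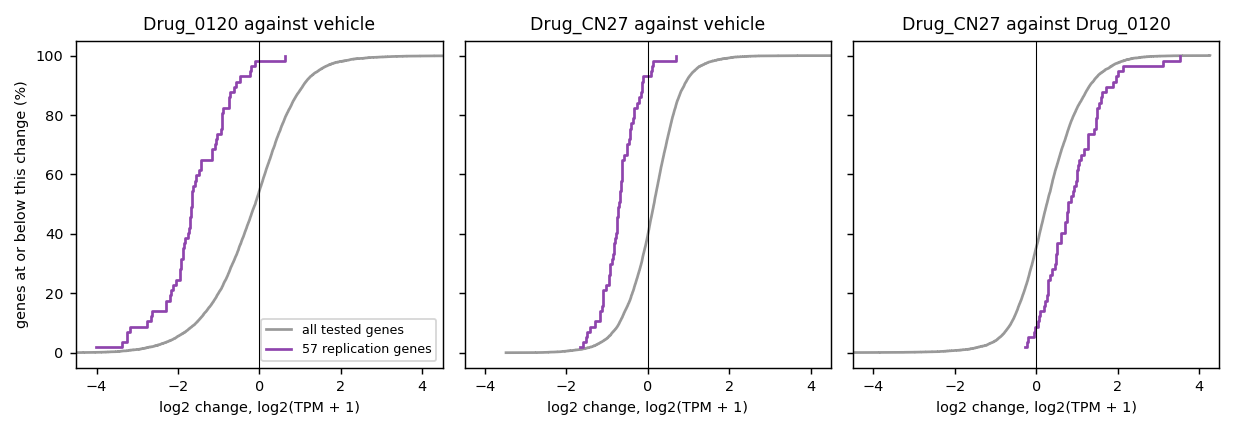
Cumulative share of genes (y axis, %) at or below each log2 change (x axis, log2(TPM + 1) scale) for the 57 replication and nucleotide genes and for all 13606 tested genes, in 3 panels, for Drug_0120 and Drug_CN27 against vehicle and then for Drug_CN27 against Drug_0120. The median of the 57 lies at -1.66, -0.70 and 0.79, beside -0.10, 0.15 and 0.26 for all tested genes; the medians of the 57 kept their sign under the other scalings, whereas the all-gene medians did not all keep theirs.

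The choice of these genes used no sequence, so their promoters were searched for letters of known cell cycle elements. Windows from 250 bases before to 50 after the gene start were matched by symbol for 50 of the 57 genes, from RefSeq on GRCh38.p14. There was no entry for DSCC1, GINS4, MCM4, MCM5, POLD3, RPA2 and RPA3. An E2F-type motif, taken as TTTCCCGC, TTTCGCGC, TTTGCCGC or TTTGGCGC on either strand, was in 21 of the 50 windows (42.0%), in 554 of 10545 windows of tested genes (5.25%) and in 908 of all 27305 windows (3.33%). CCAAT, the NF-Y box, was on either strand of 29 of the 50 (58.0%), against 36.9% of tested genes and 35.7% of all. TTTGAA, the core of the cell cycle homology region of many mitotic promoters, was in 1 of the 50 (2.0%), against 9.43% and 15.4%. The 9 stretches of 100 bases below are those of genes on which the results turn, read on the gene's own strand and 5′ to 3′. Capitals mark E2F-type matches. The first 6 genes fell with both compounds and hold a match, ORC3 holds a match and passed the test with neither compound on the deposited scale, TK1 had the widest difference between the compounds after UHRF1, and ORC4 rose. MCM6 (chr2:135876504-135876603, minus strand, positions -160 to -61 from the start) has 2 runs in which a match on each strand overlaps. The others cover positions -100 to -1: UHRF1 at chr19:4909401-4909500 (plus), PCNA at chr20:5126623-5126722 (minus), CDT1 at chr16:88803689-88803788 (plus), GINS2 at chr16:85688955-85689054 (minus), TYMS at chr18:657553-657652 (plus), ORC3 at chr6:87590035-87590134 (plus), TK1 at chr17:78187205-78187304 (minus) and ORC4 at chr2:148021552-148021651 (minus).
MCM6: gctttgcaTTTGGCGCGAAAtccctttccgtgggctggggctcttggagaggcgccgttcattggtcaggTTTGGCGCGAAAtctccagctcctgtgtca
UHRF1: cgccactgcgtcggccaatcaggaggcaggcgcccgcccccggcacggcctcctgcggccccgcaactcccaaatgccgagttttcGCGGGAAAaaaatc
PCNA: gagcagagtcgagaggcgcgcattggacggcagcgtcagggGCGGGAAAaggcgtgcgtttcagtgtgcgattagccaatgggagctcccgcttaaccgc
CDT1: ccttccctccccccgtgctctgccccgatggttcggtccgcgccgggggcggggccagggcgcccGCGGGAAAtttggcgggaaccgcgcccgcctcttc
GINS2: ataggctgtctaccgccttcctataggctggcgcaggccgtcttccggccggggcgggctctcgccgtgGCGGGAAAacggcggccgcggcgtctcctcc
TYMS: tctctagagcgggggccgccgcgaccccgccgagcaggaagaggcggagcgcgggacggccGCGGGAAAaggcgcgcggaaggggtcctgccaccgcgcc
ORC3: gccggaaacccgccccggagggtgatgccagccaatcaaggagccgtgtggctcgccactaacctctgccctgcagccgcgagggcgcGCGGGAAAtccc
TK1: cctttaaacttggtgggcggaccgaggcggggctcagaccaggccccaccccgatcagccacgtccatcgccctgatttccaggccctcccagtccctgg
ORC4: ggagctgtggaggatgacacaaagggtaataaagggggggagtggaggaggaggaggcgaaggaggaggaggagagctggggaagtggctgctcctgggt
TK1 and ORC4 show no capitals because these letters are not in the stretch, which says nothing of E2F itself at either gene. RRM2, CDC45, WDHD1 and ORC1 also had no E2F-type match in their windows.

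The genes with and without an E2F-type match overlapped in their changes. With Drug_0120 the median log2 change was -1.89 over the 21 genes with a match and -1.59 over the 29 without. With Drug_CN27 it was -0.66 and -0.72. For Drug_CN27 as against Drug_0120 it was 1.11 with a match and 0.79 without. UHRF1 and POLE2 were the lowest of the matched genes with Drug_0120 and Drug_CN27, and TK1 and CDC45 the lowest of the unmatched.

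**Figure D2:**
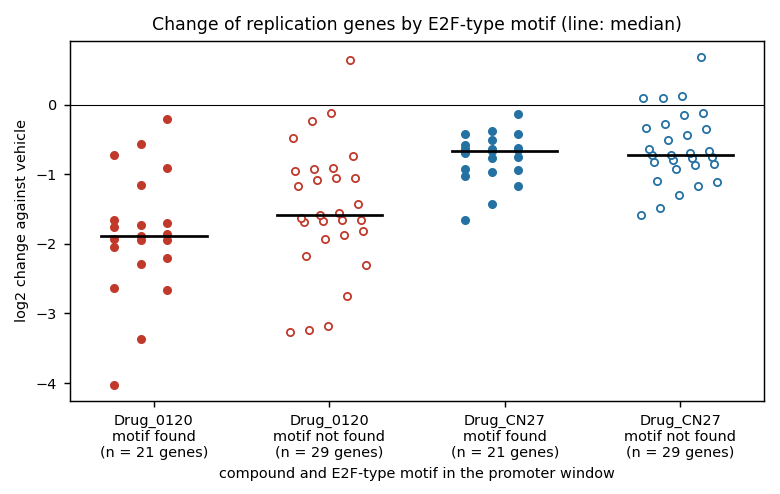
Log2 change against vehicle (y axis, log2(TPM + 1) scale) of the 50 genes with a promoter window, split by compound and by an E2F-type motif in the window (x axis); each point is a gene and lines are medians. The clouds of genes with and without the motif overlap, with medians of -1.89 and -1.59 for Drug_0120 and of -0.66 and -0.72 for Drug_CN27.

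Origin recognition and licensing genes ranged from steep falls, through smaller changes, to the rise of ORC4. Of the 9, 7 fell and 1 rose with Drug_0120, and 6 fell and 1 rose with Drug_CN27. The median log2 changes were -1.08 and -0.50. CDC6, the ATPase that helps load the helicase, was at 59.3 and 61.9 TPM with vehicle, 15.4 and 19.8 TPM with Drug_0120 and 28.0 and 30.5 TPM with Drug_CN27. Its partner CDT1 was at 111 and 117 TPM, 29.4 and 28.9 TPM, and 55.5 and 60.8 TPM in the same order. For both genes the groups were apart, with Drug_0120 lowest and Drug_CN27 between. CDC6 fell by 1.74 ± 0.11 (log2, SE) with Drug_0120 and by 1.03 ± 0.11 with Drug_CN27, and CDT1 by 1.94 ± 0.07 and 0.97 ± 0.07 (limma adjusted p from 3.87e-08 to 5.79e-05). An SE here covers the spread between libraries and not the choice of scaling. Over the scalings the log2 change of CDT1 with Drug_0120 ran from -1.94 to -1.27, and its difference between the compounds from 0.39 to 0.97. GMNN, the inhibitor of CDT1, was at 82.9 and 82.9 TPM with vehicle, 25.1 and 27.4 TPM with Drug_0120, and 47.6 and 43.4 TPM with Drug_CN27. It fell by 1.62 ± 0.07 and 0.85 ± 0.07, so the inhibitor was lower together with its target.

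Within the origin recognition complex itself the subunits went separate ways. ORC1, the subunit that comes and goes with the cell cycle, fell by 1.87 ± 0.09 with Drug_0120 and by 0.82 ± 0.09 with Drug_CN27. ORC4 (ENSG00000115947.13_3) was the member that rose: it was at 5.68 and 5.53 TPM with vehicle, 9.33 and 9.17 TPM with Drug_0120 and 10.6 and 8.73 TPM with Drug_CN27. Vehicle was the lowest group without overlap, while the compounds' libraries overlapped each other. Its log2 change was 0.63 ± 0.10 with Drug_0120 (limma adjusted p = 0.000445) and 0.68 ± 0.10 with Drug_CN27 (limma adjusted p = 0.00045), and it was called higher under all 16 alternatives. The difference between compounds was 0.05, with a 95% interval from -0.19 to 0.29, and its sign turned under other scalings. ORC3 was at 22.5 and 22.8 TPM, 19.5 and 19.5 TPM, and 22.0 and 18.9 TPM, and passed the test with neither compound (log2 changes of -0.20 ± 0.09 and -0.14 ± 0.09). It was called lower with Drug_0120 under the GC correction (-0.32), without either Drug_CN27 library and with only the 2 groups compared. With Drug_CN27 ORC3 was called lower under median-of-ratios scaling (-0.31), quantile normalization (-0.30), the GC correction (-0.43) and without Drug_CN27 replicate 1 (-0.24). ORC6 was called lower with both compounds, with log2 changes of -1.08 for Drug_0120 and -0.33 for Drug_CN27. ORC2 fell by 0.91 ± 0.08 with Drug_0120. With Drug_CN27 it was at 25.8 and 23.0 TPM beside 23.3 and 22.5 TPM with vehicle, and its log2 change was 0.09 ± 0.08, with the opposite sign under 3 other scalings. ORC5 fell by 0.23 ± 0.07 with Drug_0120, a call lost under 3 other scalings and without vehicle replicate 2 (-0.21) or Drug_0120 replicate 1 (-0.20), and by 0.50 ± 0.07 with Drug_CN27.

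All 8 MCM genes fell with both compounds, with median log2 changes of -2.03 for Drug_0120 and -0.80 for Drug_CN27. MCM7 (ENSG00000166508.17_3), a helicase subunit and the most abundant of the 57 transcripts in vehicle, was at 467 and 478 TPM with vehicle, 120 and 123 TPM with Drug_0120 and 236 and 254 TPM with Drug_CN27. MCM2 was at 181 and 186 TPM, 39.1 and 38.9 TPM, and 103 and 111 TPM. Both show the order common to most of the family, with vehicle highest and Drug_0120 lowest and no overlap. MCM7 fell by 1.95 ± 0.06 and 0.94 ± 0.06, and MCM2 by 2.20 ± 0.06 and 0.77 ± 0.06. MCM6 (ENSG00000076003.4_2), whose promoter holds the paired matches shown above, was at 60.2 and 57.8 TPM with vehicle, 8.26 and 8.71 TPM with Drug_0120, and 36.8 and 35.05 TPM with Drug_CN27. It fell by 2.66 ± 0.07 with Drug_0120 and by 0.70 ± 0.07 with Drug_CN27, a difference of 1.96 ± 0.07 between the compounds (limma adjusted p = 1.32e-07).

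The subunits of the MCM2 to MCM7 hexamer were thus not lowered evenly. The highest subunit, MCM7, stood 8.01 times above the lowest, MCM6, in mean TPM with vehicle, 14.4 times with Drug_0120 and 6.83 times with Drug_CN27. MCM10, which is not part of the hexamer and helps start unwinding, was the MCM gene with the steepest fall. It was at 34.3 and 32.8 TPM with vehicle, 4.31 and 3.93 TPM with Drug_0120, and 12.2 and 10.5 TPM with Drug_CN27, and fell by 2.75 ± 0.10 and 1.49 ± 0.10. MCM3 fell least with Drug_CN27, by 0.43 ± 0.07. MCM8, a helicase known mainly from recombination, was at 21.2 and 17.7 TPM with vehicle, 13.3 and 12.2 TPM with Drug_0120, and 12.99 and 11.5 TPM with Drug_CN27. MCM8 fell by 0.57 ± 0.11 and 0.63 ± 0.11, and its libraries overlapped between the compounds (difference -0.06, 95% interval -0.31 to 0.19). Under 3 other scalings MCM8 was called lower with Drug_CN27 than with Drug_0120 (-0.26 to -0.38).

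CDC45 and all 4 GINS genes fell with both compounds, with median log2 changes of -1.94 and -0.76. CDC45 (ENSG00000093009.9_2), the helicase activator, was at 92.1 and 103 TPM with vehicle, 9.22 and 10.6 TPM with Drug_0120 and 31.5 and 31.7 TPM with Drug_CN27. The mean with Drug_0120 was 10.2% of vehicle and that with Drug_CN27 32.4%. It fell by 3.18 ± 0.09 (limma adjusted p = 1.42e-08) and by 1.59 ± 0.09 (limma adjusted p = 1.59e-06). GINS4 was at 51.4 and 45.7 TPM, 16.9 and 17.8 TPM, and 22.1 and 20.9 TPM, and fell by 1.43 ± 0.08 and 1.14 ± 0.08. GINS3 fell by 1.76 ± 0.07 with Drug_0120 and by 0.65 ± 0.07 with Drug_CN27. The GINS subunits, which form a tetramer with 1 copy of each, spanned a ratio of 1.5 in vehicle, 2.67 with Drug_0120 and 1.63 with Drug_CN27 in mean TPM.

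Among primase and polymerase genes, 9 of 10 fell with each compound, with median log2 changes of -1.68 and -0.67. POLD3, a polymerase delta subunit, is among the 9 with Drug_CN27 by a fall of 0.22 ± 0.09, and lost that call with the table rescaled, with no filter, and without vehicle replicate 1 (-0.19), vehicle replicate 2 (-0.25), Drug_0120 replicate 1 (-0.22) or Drug_CN27 replicate 2 (-0.16). POLE2 (ENSG00000100479.12_2), the second subunit of polymerase epsilon, was at 27.8 and 26.0 TPM with vehicle, 1.75 and 1.66 TPM with Drug_0120 and 7.98 and 7.70 TPM with Drug_CN27. It was the steepest fall of all 57 genes with Drug_CN27, by 1.66 ± 0.09, and fell by 3.37 ± 0.09 with Drug_0120. POLE3, a histone-fold subunit of the same enzyme that also serves in a chromatin remodeler, was at 113 and 114 TPM with vehicle, 104 and 105 TPM with Drug_0120, and 89.8 and 87.7 TPM with Drug_CN27. Its log2 change with Drug_0120 was -0.12 ± 0.05 and did not pass (limma adjusted p = 0.0699). The sign was opposite under median-of-ratios scaling, rescaling and quantile normalization, whereas POLE3 was called lower with the GC correction (-0.11), with no filter on low values, without either Drug_CN27 library and with only the 2 groups compared. POLE3 fell by 0.35 ± 0.05 with Drug_CN27.

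Polymerase epsilon thus had, with each compound though not in vehicle, the widest spread of mean TPM among the 10 complexes compared. POLE3 stood 4.21 times above POLE2 in mean TPM with vehicle, 61.2 times with Drug_0120 and 11.3 times with Drug_CN27. The catalytic subunits POLA1, POLD1 and POLE fell by 2.04 ± 0.09, 1.82 ± 0.07 and 0.91 ± 0.06 with Drug_0120, and by 0.58 ± 0.09, 0.80 ± 0.07 and 0.42 ± 0.06 with Drug_CN27. Over the scalings the log2 change of POLD1 with Drug_0120 ran from -1.82 to -1.19. The primase subunits parted: PRIM1, the catalytic subunit, fell by 2.30 ± 0.08 and 0.76 ± 0.08. PRIM2, the large subunit, was at 17.1 and 16.6 TPM with vehicle, 12.8 and 10.8 TPM with Drug_0120, and 19.1 and 17.9 TPM with Drug_CN27. PRIM2 fell by 0.48 ± 0.10 with Drug_0120, and with Drug_CN27 its log2 change was 0.13 ± 0.10 (limma adjusted p = 0.255), negative under 3 other scalings.

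The 7 clamp and clamp loader genes fell with Drug_0120, and 6 of them fell with Drug_CN27 (median log2 changes -1.17 and -0.72). PCNA (ENSG00000132646.10_2), the sliding clamp, was at 389 and 404 TPM with vehicle, 106 and 111 TPM with Drug_0120, and 310 and 300 TPM with Drug_CN27. It fell by 1.86 ± 0.06 with Drug_0120 and by 0.38 ± 0.06 with Drug_CN27, and the compounds differed by 1.48 ± 0.06. RFC1, the large subunit of the canonical loader, was at 53.1 and 50.7 TPM, 23.3 and 21.7 TPM, and 58.9 and 52.6 TPM. It fell by 1.17 ± 0.08 with Drug_0120, and its log2 change with Drug_CN27 was 0.10 ± 0.08, negative under median-of-ratios scaling and the GC correction, where it was called lower (-0.18). RFC3, a small subunit shared by the loaders, was at 55.1 and 55.2 TPM, 33.3 and 32.5 TPM, and 30.5 and 26.4 TPM, and fell by 0.73 ± 0.08 and 0.93 ± 0.08. DSCC1 (ENSG00000136982.5_3), part of the alternative loader that acts in sister chromatid cohesion, was at 31.1 and 29.9 TPM with vehicle, 10.3 and 10.2 TPM with Drug_0120, and 10.5 and 9.40 TPM with Drug_CN27. DSCC1 was lower by a like amount with both compounds: it fell by 1.49 ± 0.08 and 1.53 ± 0.08, with a difference of -0.04 and a 95% interval from -0.23 to 0.15. Under 3 other scalings DSCC1 was called lower with Drug_CN27 than with Drug_0120 (-0.24 to -0.40).

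RPA, the trimer that coats single-stranded DNA, had the smallest median fall of the 10 role groups with Drug_0120 (median log2 change -0.74). RPA1, RPA2 and RPA3 fell by 0.74 ± 0.05, 0.75 ± 0.06 and 0.63 ± 0.08 with Drug_0120, and none fell 2-fold. With Drug_CN27, RPA1 fell by 0.63 ± 0.05 and RPA2 by 0.46 ± 0.06, while RPA3 did not pass (log2 change -0.16 ± 0.08, limma adjusted p = 0.0896). RPA3 was called lower under median-of-ratios scaling (-0.34), quantile normalization (-0.25) and the GC correction (-0.43). RPA1 was at 109 and 109 TPM with vehicle, 64.7 and 65.4 TPM with Drug_0120, and 70.1 and 70.0 TPM with Drug_CN27, so that both compounds left it well below vehicle and close to each other. Of the Okazaki fragment enzymes, the flap nuclease FEN1 fell by 1.43 ± 0.07 and 1.09 ± 0.07, and the ligase LIG1 by 1.66 ± 0.08 and 1.17 ± 0.08. RNASEH2A, the catalytic subunit of the nuclease that removes ribonucleotides, was at 81.6 and 87.6 TPM with vehicle, 21.1 and 21.6 TPM with Drug_0120, and 58.2 and 66.6 TPM with Drug_CN27. It fell by 1.94 ± 0.08 and 0.44 ± 0.08, a far wider gap between the compounds than for the other enzymes of fragment joining (1.5 ± 0.08, beside 0.33 ± 0.07 for FEN1 and 0.49 ± 0.08 for LIG1, of which FEN1 passed under none of the 4 other scalings and LIG1 under 2 of them).

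Fork protection genes fell in 4 of 4 cases with Drug_0120 and in 3 of 4 with Drug_CN27 (median log2 changes -1.92 and -0.68). CLSPN (ENSG00000092853.13_3), encoding claspin, which carries the checkpoint signal from ATR to CHK1, was at 18.8 and 17.4 TPM with vehicle, 2.29 and 1.87 TPM with Drug_0120, and 11.7 and 10.9 TPM with Drug_CN27. It fell by 2.63 ± 0.10 and 0.64 ± 0.10, and the compounds differed by 2.0 ± 0.10. WDHD1, which links the helicase to polymerase alpha, was at 19.3 and 17.4 TPM, 3.50 and 3.09 TPM, and 16.5 and 13.6 TPM. WDHD1 fell by 2.17 ± 0.12 with Drug_0120, and its log2 change of -0.27 ± 0.12 with Drug_CN27 did not pass (limma adjusted p = 0.0603), though it passed under 3 other scalings and without Drug_CN27 replicate 1 (-0.41). TIMELESS and TIPIN, partners in the fork protection complex, fell by 1.66 ± 0.06 and 0.95 ± 0.08 with Drug_0120 and by 0.87 ± 0.06 and 0.73 ± 0.08 with Drug_CN27.

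UHRF1 (ENSG00000276043.4_4), which brings the maintenance DNA methyltransferase DNMT1 to newly copied DNA, had the steepest fall of the 57 with Drug_0120. It was at 48.8 and 46.0 TPM with vehicle, 1.72 and 2.24 TPM with Drug_0120 and 31.6 and 34.8 TPM with Drug_CN27. The mean with Drug_0120 was 4.18% of vehicle, and the mean with Drug_CN27 was 70.0%. UHRF1 fell by 4.03 ± 0.10 (limma adjusted p = 1.14e-08) with Drug_0120 and by 0.50 ± 0.10 (limma adjusted p = 0.00242) with Drug_CN27. The gap between the compounds, 3.52 ± 0.10, was the widest of the 57 genes. CHAF1A and CHAF1B, subunits of the chaperone that places histones H3 and H4 behind the fork, fell by 1.67 ± 0.07 and 1.59 ± 0.08 with Drug_0120 and by 0.92 ± 0.07 and 1.29 ± 0.08 with Drug_CN27.

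All 5 genes of deoxynucleotide supply fell with Drug_0120, and 3 fell with Drug_CN27 (median log2 changes -1.56 and -0.64). RRM2 (ENSG00000171848.14_4), the S phase small subunit of ribonucleotide reductase, was at 170 and 163 TPM with vehicle, 17.1 and 16.2 TPM with Drug_0120, and 78.2 and 74.8 TPM with Drug_CN27. It fell by 3.24 ± 0.06 (limma adjusted p = 4.04e-09) and by 1.11 ± 0.06 (limma adjusted p = 1.92e-06). RRM1, the large subunit, fell less, by 1.56 ± 0.06 and 0.69 ± 0.06. RRM1 thus stood 1.27 times above RRM2 in mean TPM with vehicle, 4.27 times with Drug_0120 and 1.71 times with Drug_CN27.

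TK1 (ENSG00000167900.11_2), the cytosolic thymidine kinase that salvages thymidine in S phase, separated the compounds. It was at 164 and 174 TPM with vehicle, 16.1 and 17.4 TPM with Drug_0120, and 139 and 166 TPM with Drug_CN27. Drug_0120 left 9.90% of the vehicle mean. With Drug_CN27 the library at 166 TPM lay within the range of vehicle and that at 139 TPM below it. TK1 fell by 3.26 ± 0.09 with Drug_0120 (limma adjusted p = 1.43e-08), and its log2 change there ran from -3.26 to -2.73 over the scalings. Its log2 change with Drug_CN27 was -0.15, with a 95% interval from -0.36 to 0.05 (limma adjusted p = 0.156), and it was called lower under median-of-ratios scaling (-0.33) and without Drug_CN27 replicate 2 (-0.28). The difference between the compounds was 3.11 ± 0.09. TYMS, thymidylate synthase, which makes the same nucleotide from dUMP, was at 170 and 173 TPM, 75.5 and 77.7 TPM, and 110 and 110 TPM. TYMS fell by 1.15 ± 0.05 and 0.64 ± 0.05, less than TK1 with Drug_0120 and more than TK1 with Drug_CN27. DUT, which breaks down dUTP, was at 120 and 128 TPM, 59.6 and 58.1 TPM, and 115 and 112 TPM, and fell by 1.06 ± 0.06 with Drug_0120. With Drug_CN27 its log2 change was -0.12 ± 0.06 (limma adjusted p = 0.0969), though DUT was called lower under median-of-ratios scaling (-0.30) and the GC correction (-0.35).

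**Figure D3:**
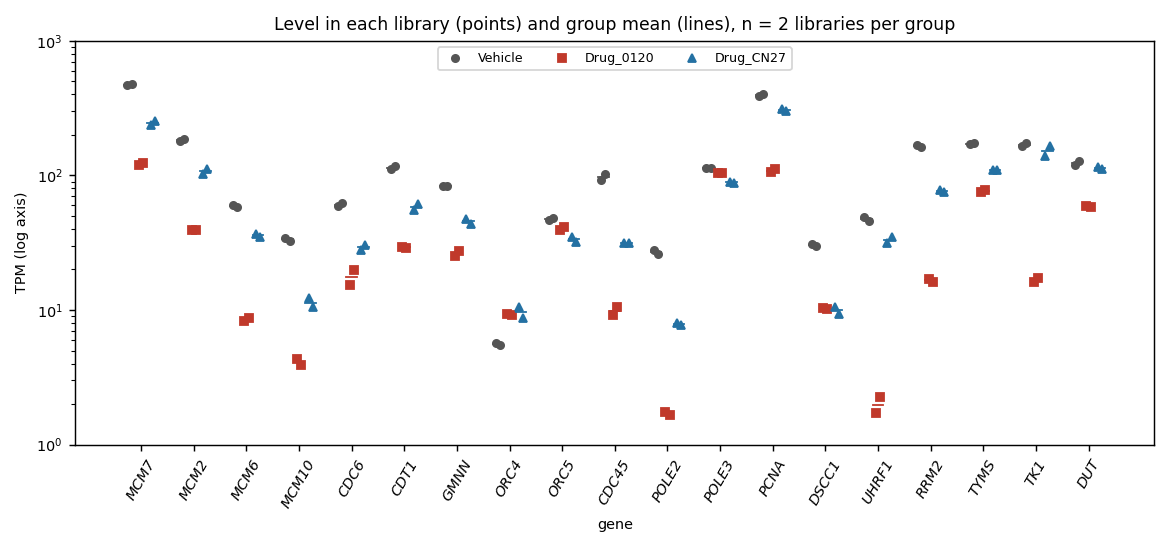
TPM (y axis, log axis) of 19 of the 57 genes (x axis) in each of the 6 libraries, as points by group, with lines at the group means of 2 libraries. Most genes run from vehicle at the top to Drug_0120 at the bottom; TK1 and DUT with Drug_CN27 lie near vehicle, DSCC1 is alike with both compounds, and ORC4 is lowest in vehicle, also under all other scalings tried.

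**Figure D4:**
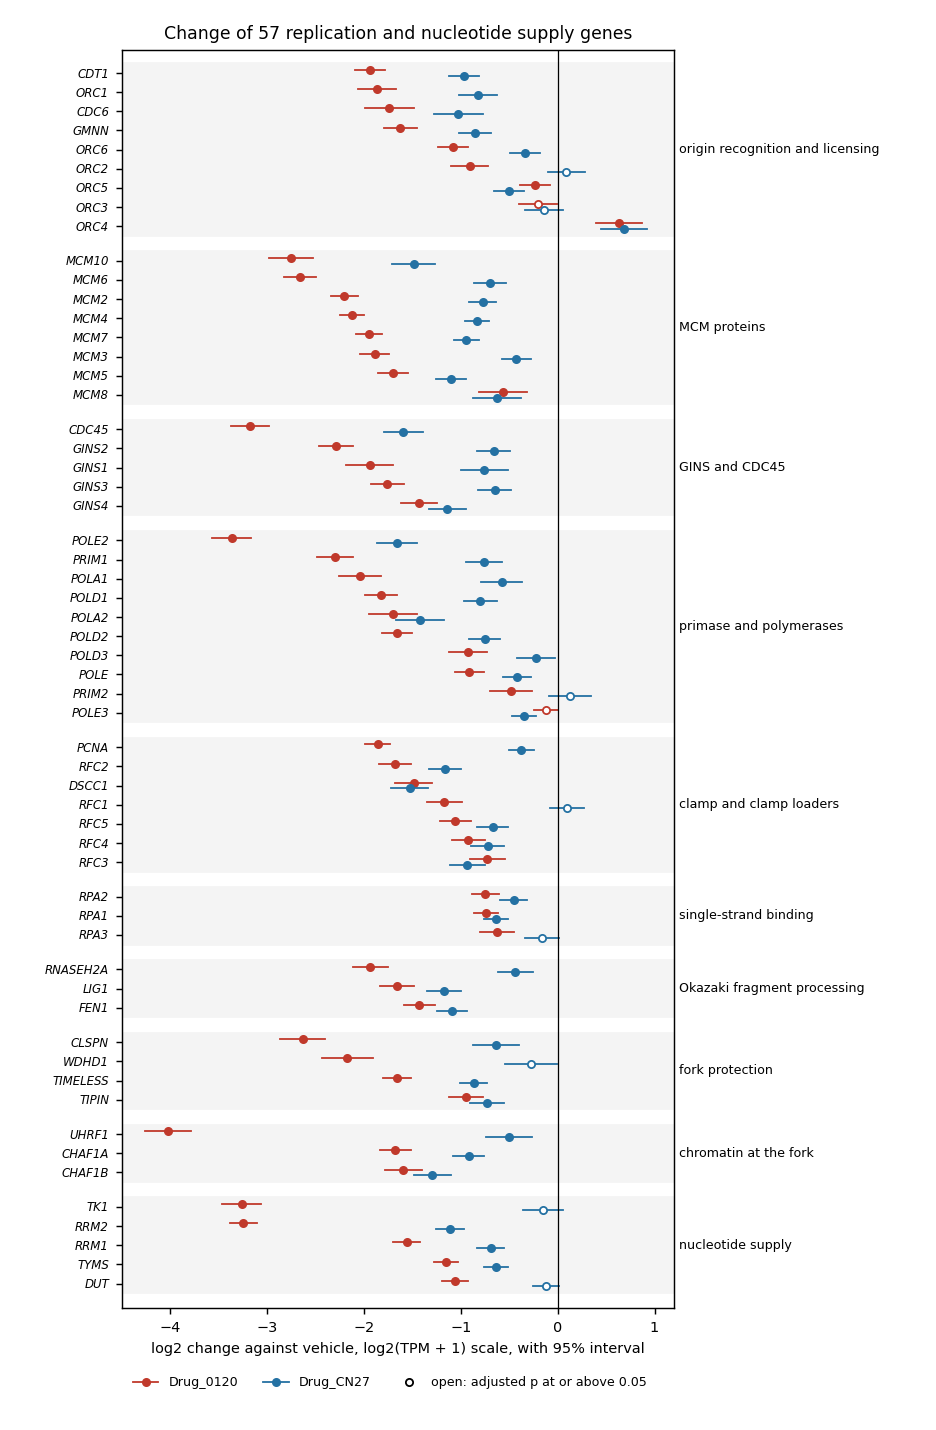
Log2 change against vehicle (x axis, log2(TPM + 1) scale) with its 95% interval for each of the 57 genes (y axis, ordered by role), for Drug_0120 and Drug_CN27; open points did not pass limma's test. Drug_0120 spans -4.03 (UHRF1) to 0.63 (ORC4) and Drug_CN27 -1.66 (POLE2) to 0.68 (ORC4); the signs of POLE3 with Drug_0120 and of ORC2, PRIM2 and RFC1 with Drug_CN27 turn under other scalings.

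Sorted by the level that was left, the 57 genes spread widely with Drug_0120 and less so with Drug_CN27. With Drug_0120, 3 genes (POLE2, UHRF1 and TK1) were under 10% of the vehicle mean and 13 were from 10% to 25%. A further 26 genes stood from 25% to 50%, 11 from 50% to 75%, and ORC3, ORC5 and POLE3 from 75% to 100%. With Drug_CN27 no gene was under 25%, 13 were from 25% to 50%, 31 from 50% to 75% and 9 from 75% to 100%. ORC2, ORC4, PRIM2 and RFC1 were above the vehicle mean with Drug_CN27, and of these ORC4 alone passed the test.

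The direct comparison ranked the genes by how far the compounds were apart. The widest gaps, all with Drug_CN27 higher, were UHRF1, TK1, RRM2 (2.13 ± 0.06), CLSPN and MCM6. By role, at least 2-fold differences were called for 6 of 8 MCM genes, 4 of 5 genes of GINS and CDC45, 4 of 10 polymerase genes, 2 of 7 clamp genes, 2 of 4 fork protection genes, 2 of 5 nucleotide genes, 1 of 9 licensing genes, 1 of 3 Okazaki genes, 1 of 3 chromatin genes and no RPA gene. The 3 genes that were lower with Drug_CN27 had small differences: ORC5 -0.27 ± 0.07, POLE3 -0.23 ± 0.05 and RFC3 -0.21 ± 0.08. RFC3 lost its call (limma adjusted p = 0.0417) under 7 alternatives, among them leaving out any library but Drug_CN27 replicate 1, with differences from -0.10 to -0.22, and ORC5 lost it without Drug_0120 replicate 2 (-0.23). ORC5, POLE3 and RFC3 kept their sign and their call under the other scalings. Small differences the other way depended on scaling: RFC4 (0.20), RPA2 (0.29), TIPIN (0.22), POLA2 (0.28) and CHAF1B (0.30) were called higher with Drug_CN27 and changed sign under median-of-ratios scaling or quantile normalization. GINS4 (0.29) and FEN1 kept their sign but lost their calls under all 4 other scalings. LIG1 lost its call under median-of-ratios scaling and the GC correction, and RFC5 (0.38) and RPA3 (0.46) lost theirs under median-of-ratios scaling.

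**Figure D5:**
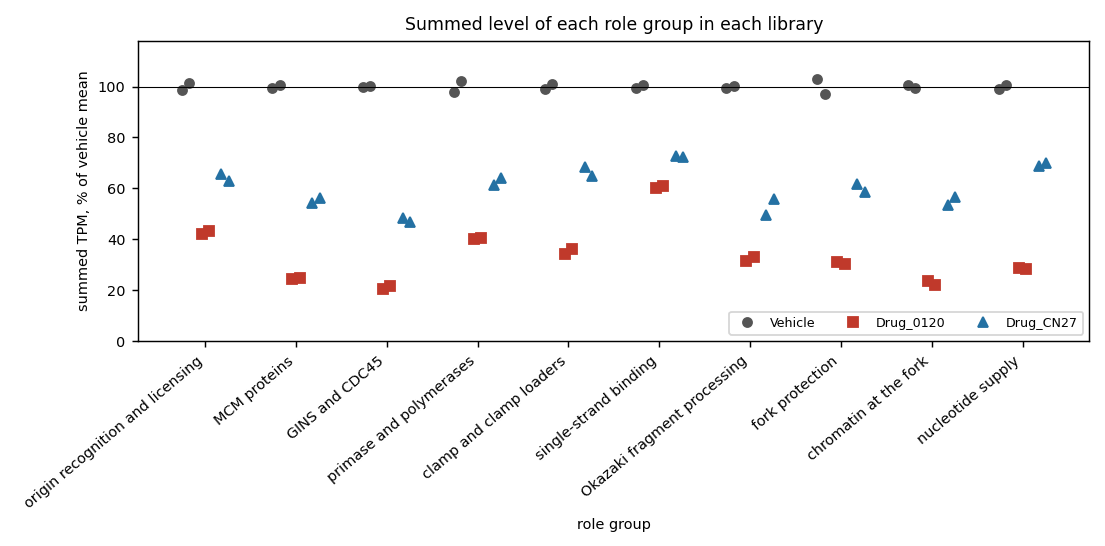
Summed TPM of each of the 10 role groups (x axis) in each library, as a percent of the vehicle mean (y axis, linear from 0), with points by group and 2 libraries each. In every role group the Drug_0120 libraries lie lowest and the Drug_CN27 libraries between them and vehicle, on the deposited TPM scale; in percent, RPA stays highest with Drug_0120 (at most 60.8) and GINS with CDC45 lowest (at most 21.5).

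Other genes of the same pathways, from lists written with earlier results of these data known, gave a weaker pattern for replication and a like pattern for nucleotides. Of 45 other replication genes, 30 fell and 7 rose with Drug_0120 (median log2 change -0.56), and 23 fell and 6 rose with Drug_CN27 (median -0.24). Of all tested genes, 45.5% fell and 36.0% rose with Drug_0120, and 26.6% fell and 43.7% rose with Drug_CN27. Under median-of-ratios scaling 30 of the 45 were lower and 3 higher with Drug_CN27, beside 35.4% lower and 33.0% higher over all tested genes. Between the compounds 27 of the 45 were higher with Drug_CN27 and 9 lower, or 20 and 14 under quantile normalization. Of all tested genes 51.7% were called higher and 23.5% lower, or 36.9% and 38.4% under quantile normalization. The median difference of the 45 was 0.36, beside 0.26 over all tested genes, so the list stood close to all genes here. ASF1B, a histone H3-H4 chaperone of proliferating cells, fell by 2.52 ± 0.06 with Drug_0120 and by 0.74 ± 0.06 with Drug_CN27. Its paralog ASF1A rose by 0.33 ± 0.08 and 0.60 ± 0.08. PCLAF, a PCNA-binding protein, was at 71.9 and 71.4 TPM with vehicle, 15.5 and 15.6 TPM with Drug_0120, and 75.3 and 72.6 TPM with Drug_CN27. PCLAF fell by 2.13 ± 0.06 with Drug_0120, and with Drug_CN27 its log2 change was 0.04 ± 0.06 (limma adjusted p = 0.532), of either sign by scaling and called lower with the GC correction (-0.23).

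The remaining named replication genes included origin firing and checkpoint factors. TICRR, which brings CDC45 to origins, fell by 1.93 ± 0.09 with Drug_0120 and by 1.53 ± 0.09 with Drug_CN27. DBF4B, an activator of the CDC7 kinase, fell more with Drug_CN27 (by 1.22 ± 0.08) than with Drug_0120 (by 0.52 ± 0.08), and the direct difference was -0.71 ± 0.08. RAD17, which loads the checkpoint clamp, rose by 0.59 ± 0.08 with Drug_0120 and by 0.21 ± 0.08 with Drug_CN27, a call lost under median-of-ratios scaling (0.04), quantile normalization (0.07) and the GC correction, which turned its sign (-0.075). ETAA1, an RPA-bound activator of ATR, rose by 0.44 ± 0.10 with Drug_0120 and had a log2 change of 0.03 ± 0.10 with Drug_CN27, of either sign by scaling and called lower with the GC correction (-0.28). RPAIN, the importer of RPA, rose by 0.64 ± 0.07 with Drug_CN27 and did not pass with Drug_0120 (-0.11 ± 0.07, of either sign by scaling).

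Of 44 other nucleotide genes, 37 fell and 2 rose with Drug_0120 (median log2 change -1.31), and 32 fell and 4 rose with Drug_CN27 (median -0.51). The shares over all tested genes were 45.5% lower and 36.0% higher with Drug_0120, and 26.6% and 43.7% with Drug_CN27. Between the compounds 31 of the 44 were higher with Drug_CN27 and 4 lower, or 27 and 9 under median-of-ratios scaling. Of all tested genes 51.7% were higher and 23.5% lower, or 37.3% and 38.8% under that scaling. IMPDH1, which commits purines to guanine nucleotides, was at 169 and 179 TPM with vehicle, 17.6 and 18.5 TPM with Drug_0120, and 86.8 and 98.7 TPM with Drug_CN27, and fell by 3.20 ± 0.08 and 0.90 ± 0.08. APRT, the adenine salvage enzyme, fell by 2.63 ± 0.07 and 0.85 ± 0.07. SLC29A1, a nucleoside transporter of the plasma membrane, fell by 3.50 ± 0.10 and 1.78 ± 0.10, and SHMT1, a source of one-carbon units, by 2.12 ± 0.07 and 1.26 ± 0.07. RRM2B, the p53-induced counterpart of RRM2, went the other way. It was at 27.5 and 25.6 TPM with vehicle, 65.2 and 62.8 TPM with Drug_0120, and 57.9 and 47.9 TPM with Drug_CN27, and rose by 1.24 ± 0.09 (limma adjusted p = 2.74e-06) and 0.96 ± 0.09 (limma adjusted p = 3.15e-05). PNP, purine nucleoside phosphorylase, parted the compounds: it was at 139 and 142 TPM, 161 and 169 TPM, and 74.7 and 72.4 TPM, and rose by 0.23 ± 0.06 with Drug_0120 and fell by 0.93 ± 0.06 with Drug_CN27. GUK1, guanylate kinase, rose by 0.24 ± 0.08 with Drug_CN27, a call lost under median-of-ratios scaling (0.06). With Drug_0120 its log2 change of 0.12 ± 0.08 did not pass, but GUK1 was called higher under all 4 other scalings (0.24 to 0.71). The difference between the compounds, 0.12 ± 0.08, did not pass and had the opposite sign under all 4. GUK1 was called lower with Drug_CN27 than with Drug_0120 under quantile normalization (-0.22) and the GC correction (-0.40).

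Some of these values cannot be assigned to a single gene with certainty. In GENCODE release 29, 9 of the 57 genes share at least 5% of their exon bases with another protein-coding gene, among them TYMS (39.1%, with ENOSF1), POLA2 (35.1%), RNASEH2A (30.8%), RRM2 (20.2%), PRIM1 (14.9%) and MCM7 (8.94%, with AP4M1). A further 6 overlap by as much with genes of other types only, such as the antisense transcript at MCM2 (22.7%). No source used here gives the strand setting of the counting, so reads from a gene and an overlapping partner cannot be told apart. Named pseudogenes exist for 9 of the 57, among them DUT (8), PCNA (3) and RRM2 (3), and nothing states how reads were divided between copies.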

How the data were processed

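Gene-level TPM, transcripts per 1000000, was deposited as 1 table with a column for each library. The submitters' processing notes list STAR, StringTie and hg19, while versions, annotation, strand setting and filters were not given in the sources used here. Of 20315 rows, 18 were second copies of pseudoautosomal genes and were dropped. Groups and replicate numbers came from the labels. Values were analysed as log2(TPM + 1). Genes reaching 1 TPM in 2 or more libraries, 13606 in all, were fitted together over the 6 libraries with limma 3.58.1 in R 4.3.3 (mean-variance trend, 3 residual and 5.33 prior degrees of freedom, no replicate block), with Benjamini-Hochberg adjustment over all tested genes, a threshold of 0.05 and 95% intervals. The fit was tested on simulated data. The members, role groups and gene lists were chosen with earlier results of these data known. Values are named for the lowest and highest member of each role group with each compound, for 9 preset genes, for the widest differences between compounds, and for the strongest called genes of the other lists. Further members were named after their values were seen, to account for the counts. Alternatives were pseudocounts of 0.1 and 5, no filter, a minimum of 5 TPM, median-of-ratios scaling, each table rescaled to 1000000, quantile normalization, a GC correction (GC content of GENCODE 29 transcripts, 19837 of 20297 genes), a replicate block, only the groups compared, and each library left out. Promoters are on another build than the deposited table and were joined by symbol with Python 3.11.15. Identifiers are those of the table.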

Additional observations from a re-analysis of the deposited data

How the results depend on the processing

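The calls of the 57 genes kept their direction in most settings. With Drug_0120, 53 to 56 genes were lower and 1 higher under every alternative, and with Drug_CN27 47 to 54 were lower and 1 higher. The median log2 change of -1.66 with Drug_0120 was -1.70 with a pseudocount of 0.1, -1.49 with a pseudocount of 5, -1.54 under median-of-ratios scaling, -1.49 with the table rescaled, -1.51 under quantile normalization, -1.54 with the GC correction, and -1.69 to -1.63 leaving out single libraries. The median of -0.70 with Drug_CN27 was -0.64 with a pseudocount of 5, -0.87 under median-of-ratios scaling, -0.78 under quantile normalization, -0.88 with the GC correction, and -0.73 to -0.66 leaving out single libraries. Between the compounds the median of 0.79 was 0.70 with a pseudocount of 5, 0.50 under median-of-ratios scaling, 0.62 with the table rescaled, 0.60 under quantile normalization, 0.53 with the GC correction, and 0.79 to 0.84 leaving out single libraries. The all-gene medians of -0.10, 0.15 and 0.26 were 0.05, 0.15 and 0.10 with the table rescaled and between -0.02 and 0.06 under the other 3 scalings, and the medians of the 57 relative to all genes stayed between -1.64 and -1.42, -0.89 and -0.75, and 0.52 and 0.69. The 3 genes lower with Drug_CN27 than with Drug_0120 became 7 under median-of-ratios scaling, 6 under quantile normalization and 5 with the GC correction, and 1 to 3 leaving out single libraries (1 without Drug_0120 replicate 2); the cause was not tested for single genes. Among genes called in the main fit or the alternative, signs reversed with Drug_CN27 against vehicle under the GC correction for ORC2 (-0.18) and RFC1 (-0.18). Between the compounds they reversed under median-of-ratios scaling for ORC3 (-0.23), RFC4 (-0.10), RPA1 (-0.19), RPA2 (-0.0080) and TIPIN (-0.062). Under quantile normalization they reversed for ORC4 (-0.33), POLA2 (-0.13), TIPIN (-0.061) and CHAF1B (-0.066). Signs of uncalled genes also turned, such as MCM8 (0.023) and DSCC1 (0.033) between the compounds without Drug_CN27 replicate 2. Deviations of same-numbered libraries correlated at 0.16, 0.15 and 0.11, but with 2 numbers they share only a number. With the replicate block 56 genes were lower with Drug_0120 and 50 with Drug_CN27, and 50 were higher and 3 lower between the compounds; it added calls for ORC3 and POLE3 with Drug_0120, TK1 and WDHD1 with Drug_CN27 and RPA1 between the compounds, and took none away. Depth is unknown for all values.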
